A study of Mus musculus with 10 samples.

Results

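The genes of the TGF-beta, BMP and activin pathway were followed in RNA sequencing of mouse liver and of liver tumours. They were found by gene symbol alone, as the ligands, receptors, SMAD proteins, SMURF ligases, follistatins and antagonists of the family. The rule returned 50 of the 16697 genes in the table. Of these 50, 45 reached the filter on low values used for testing (at least 1 FPKM in at least 3 of the 10 libraries), and Bambi, Bmp5, Bmp10, Gdf6 and Gdf9 did not. FPKM are reads per kilobase of gene, corrected for library size. Levels of different genes can be compared only as far as the length used for each gene is right.

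The study asked how constitutively active FOXO1 changes tumours driven by c-MYC. Plasmids were delivered to hepatocytes of mice by hydrodynamic tail vein injection, with a transposase that integrates them into chromosomes. There were 3 groups, wild-type normal liver that carried no plasmid (NL, n = 4), tumours from c-MYC with the empty pT3 vector (c-MYC, n = 3), and tumours from both c-MYC and FOXO1AAA (named c-MYC/FOXO1AAA, n = 3). Both tumour groups therefore shared the c-MYC insert and the injection, which NL lacked. FOXO1AAA is FOXO1 with the residues phosphorylated by AKT replaced, and it was expressed from the EF1α promoter, which is active in most cell types. Neither age nor sex is given per library, the strain is named as C57BL/6 in some labels and as FVB/N in others. The study's methods name c-MYC and empty pT3 for the control tumours, while another of its descriptions adds MCL1. The RNA was taken from whole tissue, so fewer cells of a type and less RNA per cell cannot be told apart. The study's methods count the samples of each group as mice or livers, the labels name no animal for a library, and the p-values measure the spread between these samples.

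TGF-beta, the activins, the BMPs and the GDFs are secreted dimers of related proteins. They bind a complex of type I and type II receptor kinases, which phosphorylates SMAD2 and SMAD3 for TGF-beta and activin, or SMAD1, SMAD5 and SMAD9 for BMPs. The phosphorylated SMADs enter the nucleus with SMAD4, and the inhibitory SMAD6 and SMAD7 and the SMURF ubiquitin ligases turn the signal down. In liver, BMP2 and BMP6 from sinusoidal endothelial cells make hepatocytes produce hepcidin, the hormone that limits iron uptake, and TGF-beta drives stellate cells to lay down matrix.

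The libraries held from 13123717 to 20547746 reads in genes. Foxo1 stood between 70.1 and 95.6 FPKM in the 3 c-MYC/FOXO1AAA libraries, above every c-MYC library (5.16 to 6.45) and every NL library (6.67 to 7.86). The mouse Myc gene was lower in the libraries labelled c-MYC (0.494 to 0.987 FPKM) than in NL (4.10 to 22.2), and since the species of the c-MYC insert is not given in the sources used here, this level does not check the label. Marker genes of liver cells differed widely between the groups. The summed level of 12 hepatocyte markers was 96068 to 108142 FPKM in NL, 6182 to 9342 in c-MYC and 1311 to 2432 in c-MYC/FOXO1AAA. The 13 stellate cell and fibroblast markers summed to 115 to 143 FPKM in NL, 17.5 to 55.7 in c-MYC and 488 to 508 in c-MYC/FOXO1AAA. Dcn, at means of 69.7, 4.52 and 236 FPKM in that order, made up much of the sums in NL and c-MYC/FOXO1AAA. In c-MYC against NL, 5 of the 13 (Col1a1, Col1a2, Col3a1, Acta2 and Pdgfrb) had a positive log2 fold change and 8 a negative one. Lrat, which defines quiescent stellate cells, stayed at 0.144 to 0.432 FPKM in c-MYC/FOXO1AAA against 3.39 to 4.38 in NL. Colec11, Ngfr and Hhip also had lower means with FOXO1AAA than in NL. The 11 endothelial markers summed to 61.3 to 80.0, 10.4 to 18.6 and 29.3 to 43.7 FPKM in the same order, where Cdh5 alone was 3.82 to 5.30, 3.18 to 6.05 and 18.1 to 35.7 FPKM. Of the 10 tested, Cdh5, Fcgr2b, Rspo3 and Wnt2 were called higher with FOXO1AAA against c-MYC and none was called lower, while Pecam1, Kdr and Stab2 had lower means with FOXO1AAA and were not called. Of all tested genes, 15.9% were called higher and 12.7% lower between these tumours. Markers of skeletal muscle summed to 0.872 to 1.99 FPKM in NL, 3.22 to 7.23 in c-MYC and 173 to 259 in c-MYC/FOXO1AAA. Each of the 9 tested muscle markers was called higher in c-MYC/FOXO1AAA than in NL, beside 31.2% of all tested genes. Myod1, Myog, Myf5 and Myf6 had 0 reads in NL and in c-MYC. They passed the filter only through c-MYC/FOXO1AAA, so nothing is read from the share of muscle markers called. These lists moved with many of the differences described for the pathway, and their part in the results was not tested.

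**Figure D1:**
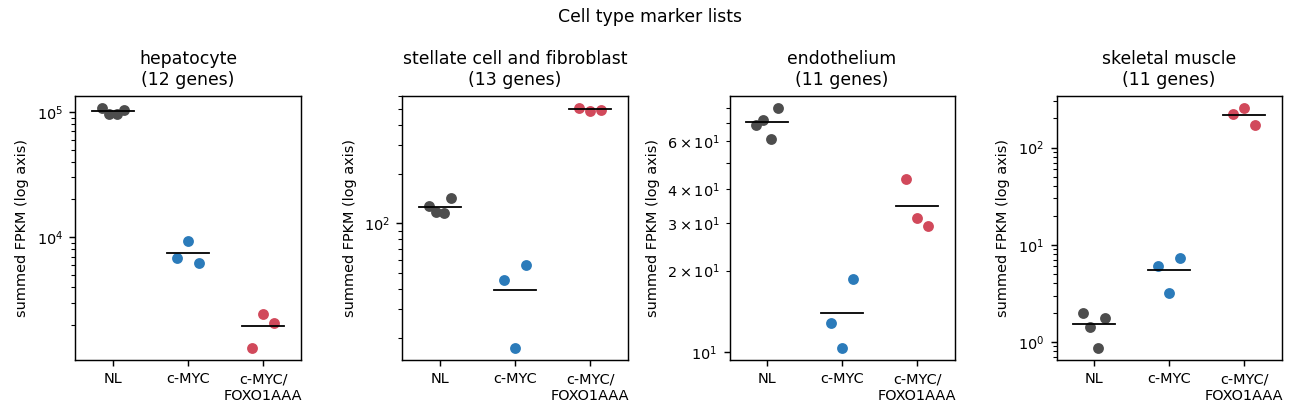
Summed FPKM (log axis) of the marker lists for hepatocytes, stellate cells and fibroblasts, endothelium and skeletal muscle in each library, with 1 point per library and a line at the group mean. The hepatocyte sum falls from NL to c-MYC to c-MYC/FOXO1AAA, and the skeletal muscle sum reaches 173 to 259 FPKM in c-MYC/FOXO1AAA against at most 7.23 in c-MYC.

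In c-MYC tumours compared with NL, 7 members were higher, 12 were lower and 26 of those tested were not called. Genes were called by limma's treat, which tests for a change beyond 1.5-fold, at a Benjamini-Hochberg adjusted p under 0.05 over all 14017 genes tested. Of all genes tested, 24.5% were called higher and 23.6% lower in this comparison. The median log2 fold change over the 50 members was -0.37, against 0.06 over all genes in the table. The groups did not overlap for 35 of the 50 members, and for 73.9% of tested genes. When the libraries were scaled to the same FPKM total instead, which raised the median of all tested genes by 0.93 on the log2 scale, 16 members were higher and 10 lower.

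When c-MYC/FOXO1AAA was compared with c-MYC, 17 members were higher, 5 lower and 23 not called. The background was 15.9% of tested genes higher and 12.7% lower. Some members passed the filter only through the group in which they were high. Tgfb2, Tgfb3 and Bmpr1b reached 1 FPKM in c-MYC/FOXO1AAA alone, so nothing is read from the share called. The median log2 fold change of the 50 members was 0.82, against 0.07 for all genes, and 36 of the 50 did not overlap between the groups, against 63.4% of tested genes. Against NL, which is also the control of the comparison before, c-MYC/FOXO1AAA had 16 members higher and 11 lower, with 31.2% and 26.6% of tested genes called in those directions, and 39 of the 50 did not overlap, against 80.1%. Scaled to the same FPKM total, which raised the median of all tested genes by 1.10 on the log2 scale, this last comparison gave 26 higher and 5 lower.

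**Figure D2:**
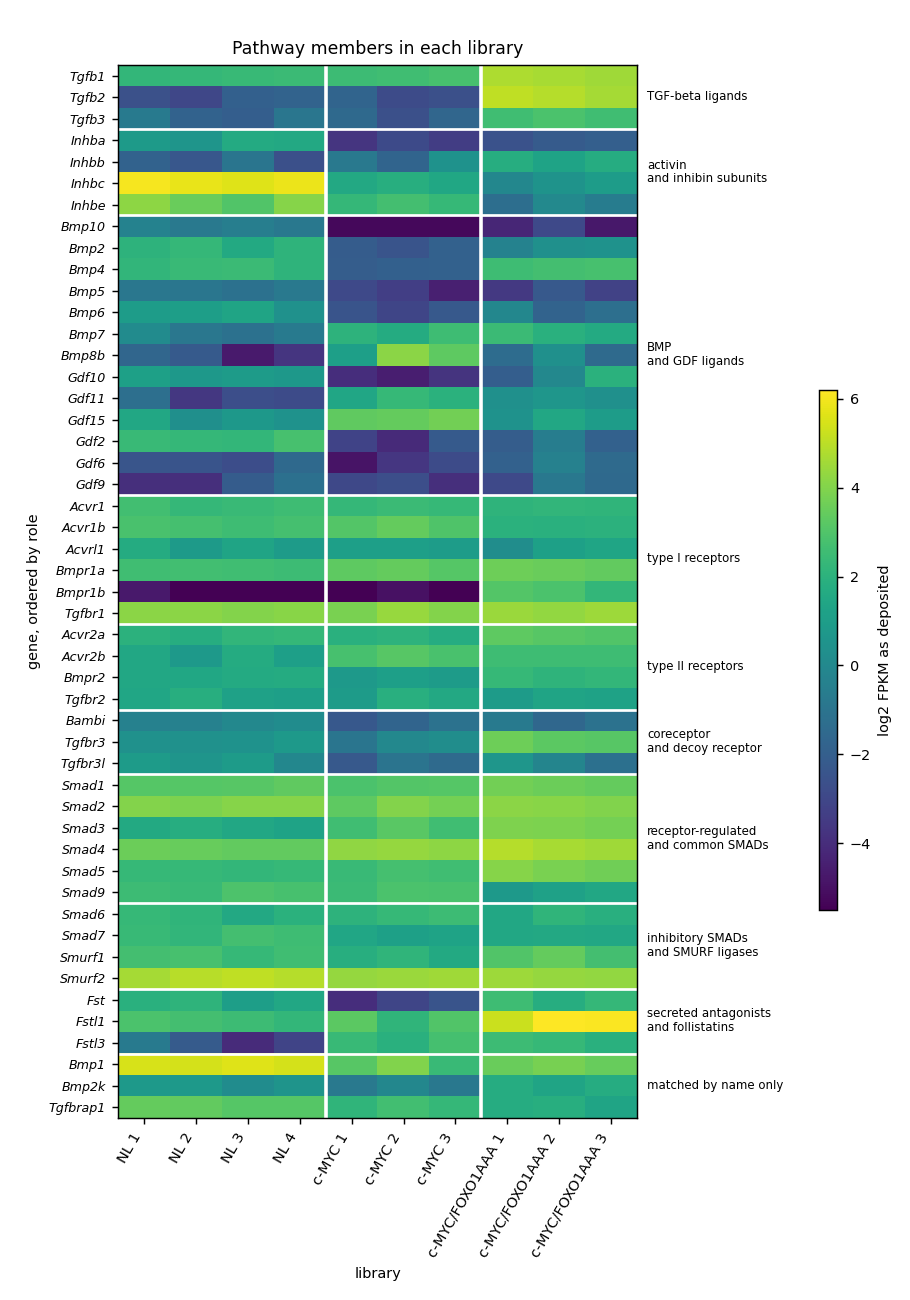
Deposited log2 FPKM (colour) of the members described (rows, ordered by role) in the 10 libraries (columns). White lines separate roles and groups; the 3 TGF-beta ligands and Bmpr1b brighten in all 3 c-MYC/FOXO1AAA libraries, and Bmp4 and Fst are darker in all 3 c-MYC libraries than in the others.

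All 3 TGF-beta ligands were called higher with FOXO1AAA against each of the other groups, and between c-MYC and NL none was called, except Tgfb1 at the same FPKM total (log2 fold change 1.22, adjusted p = 0.000509) and with no fold threshold (adjusted p = 0.0317). Tgfb2, whose gene lies on the minus strand at chr1:186622792-186705989 (GRCm38), showed the largest rise of them. Its level was 0.130, 0.0913, 0.235 and 0.256 FPKM in the NL libraries and 0.266, 0.107 and 0.125 FPKM in the c-MYC libraries. With FOXO1AAA it was 33.2, 29.6 and 24.2 FPKM. The ranges of NL and c-MYC overlapped, and every c-MYC/FOXO1AAA library lay far above both. The log2 fold change of Tgfb2 against c-MYC was 7.26 ± 0.40 (SE, adjusted p = 3.06e-07, limma). On this scale a prior count is added to each gene, so that fold changes of genes with few reads are understated. An antisense gene, Gm29491, overlaps the start of Tgfb2, and reads of the overlap could not be told apart without strand.

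Tgfb1, the ligand best known from fibrosis, was already present in normal liver. It stood at 4.75, 4.78, 5.09 and 5.43 FPKM in NL and 5.69, 6.00 and 6.81 FPKM in c-MYC, and rose to 26.9, 25.4 and 23.1 FPKM with FOXO1AAA. The log2 fold change against c-MYC was 2.02 ± 0.12 (SE, adjusted p = 2.56e-06, limma), while c-MYC and NL differed by 0.29 ± 0.11, which was not called (adjusted p = 1). Tgfb3 was low in NL (0.212 to 0.562 FPKM) and c-MYC (0.126 to 0.322 FPKM) and reached 6.08, 7.31 and 6.06 FPKM with FOXO1AAA, a log2 fold change of 4.62 ± 0.42 against c-MYC (adjusted p = 1.45e-05). Tgfb2 thus had the lowest mean of the 3 ligands in NL and reached a level near that of Tgfb1 in c-MYC/FOXO1AAA (mean 29.0 ± 4.58 against 25.2 ± 1.96 FPKM, SD, n = 3), where the ranges of the pair overlapped.

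The starts of these genes can be looked at for the letters of 3 binding motifs, searched on both strands in 300 bases around each start in RefSeq (GRCm38.p6). At least 1 start was found in that table for 36 of the 50 members. The forkhead motif GTAAACA was in the windows of 0 of these 36 genes, against 4.05% of all 27025 genes in the table. The E-box CACGTG, to which MYC can bind, was found for 6 (Acvr1b, Bmp4, Bmp6, Gdf15, Tgfb2 and Tgfbrap1), against 8.09% of all genes, and the SMAD palindrome GTCTAGAC for Smad6 alone, against 0.248%. The absence of a match says only that these letters are not in the window. Of the 6 with an E-box, Tgfb2 and Bmp4 were called higher with FOXO1AAA against c-MYC, Acvr1b and Gdf15 lower, and Bmp6 and Tgfbrap1 were not called. The 250 bases before the start are shown for Tgfb2 and Bmp4, which both rose strongly with FOXO1AAA and hold an E-box (in capitals), and for Bmpr1b, which had the largest fitted change among the members against c-MYC and holds none of the 3 motifs at its starts in that table. For Bmpr1b the farthest upstream of these starts is shown, although the annotated gene (chr3:141837136-142169425, GENCODE) extends farther upstream, where no window was searched. They lie on the minus strand at chr1:186705990-186706239, chr14:46390670-46390919 and chr3:141982265-141982514.
Tgfb2: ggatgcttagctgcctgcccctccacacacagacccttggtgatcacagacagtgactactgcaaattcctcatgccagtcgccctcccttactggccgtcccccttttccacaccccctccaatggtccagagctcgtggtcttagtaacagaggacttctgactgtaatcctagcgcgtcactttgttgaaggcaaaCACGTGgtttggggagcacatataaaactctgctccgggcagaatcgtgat
Bmp4: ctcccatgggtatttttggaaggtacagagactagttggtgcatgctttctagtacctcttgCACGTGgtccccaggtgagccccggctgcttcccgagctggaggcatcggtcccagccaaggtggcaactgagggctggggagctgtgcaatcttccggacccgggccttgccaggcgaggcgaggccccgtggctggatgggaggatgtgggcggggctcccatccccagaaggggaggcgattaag
Bmpr1b: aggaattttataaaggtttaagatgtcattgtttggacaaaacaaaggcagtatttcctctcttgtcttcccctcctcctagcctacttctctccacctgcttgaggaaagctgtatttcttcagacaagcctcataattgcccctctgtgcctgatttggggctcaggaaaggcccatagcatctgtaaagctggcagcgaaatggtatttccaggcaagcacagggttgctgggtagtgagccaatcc
The E-box began 51 bases before the start in Tgfb2 and 188 bases before it in Bmp4.

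**Figure D3:**
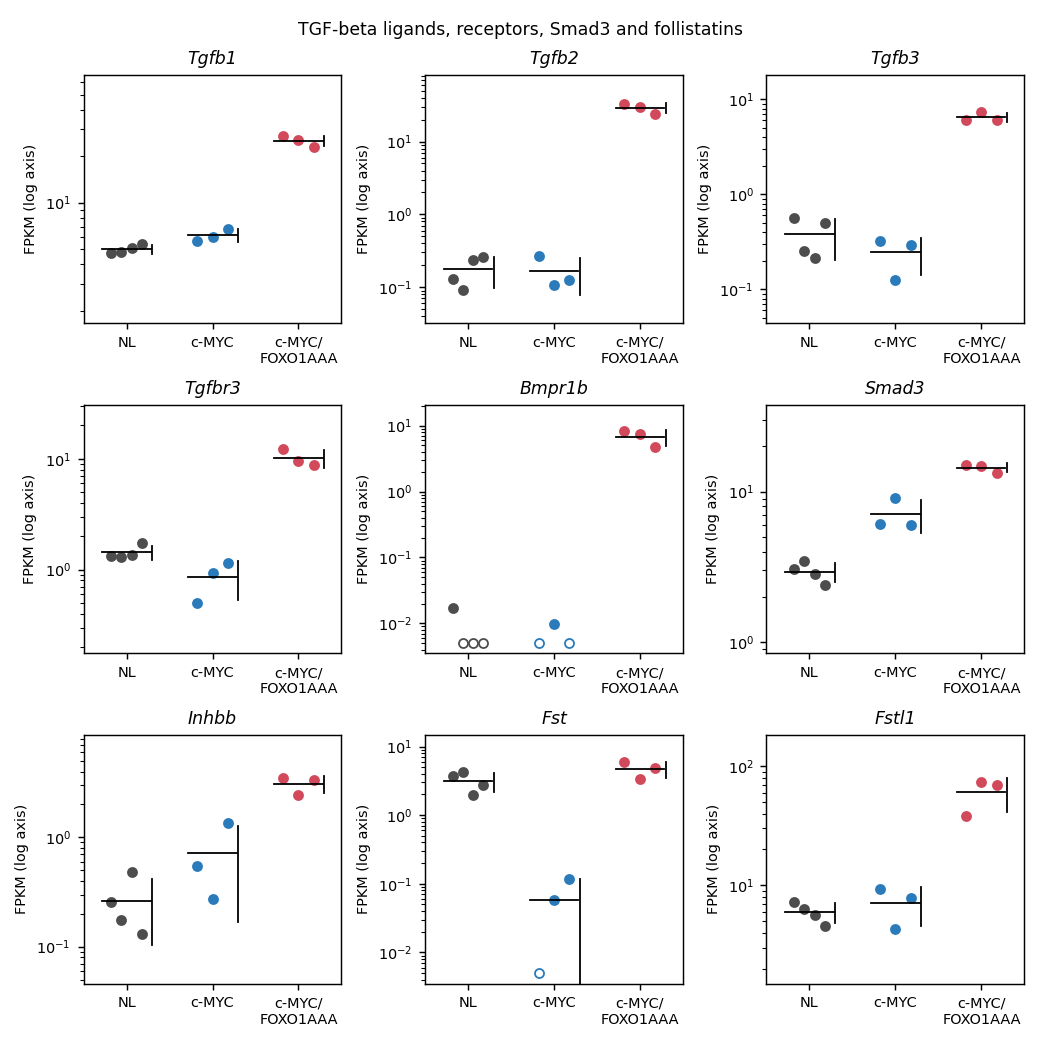
FPKM (log axis, with its own range in each panel) of 9 members in each library, grouped as NL, c-MYC and c-MYC/FOXO1AAA. Horizontal lines are group means and vertical lines the SD, cut at the lower edge of the panel; open circles are libraries with 0 reads, drawn at 0.005 FPKM, and a mean below that is not drawn. Tgfb1, Tgfb2 and Tgfb3 separate the c-MYC/FOXO1AAA libraries from all others, and Fst drops in c-MYC.

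The activin and inhibin subunits, which form activin as dimers of beta chains, did not move together. Inhbc and Inhbe, the beta chains made mainly by hepatocytes, had their highest levels in NL. Inhbc was 65.1, 55.4, 48.9 and 58.4 FPKM in NL, 2.84, 3.54 and 2.72 in c-MYC, and 0.873, 1.35 and 1.87 in c-MYC/FOXO1AAA. Its log2 fold change was -4.20 ± 0.22 in c-MYC against NL (SE, adjusted p = 1.09e-07, limma), and -1.17 ± 0.23 in c-MYC/FOXO1AAA against c-MYC, where it missed the threshold (adjusted p = 0.0514) but passed without c-MYC/FOXO1AAA 3 (adjusted p = 0.00528), with no filter (0.0487), at the same median (0.0249) and with no fold threshold (0.00139). Inhbe was 18.6, 11.4, 8.07 and 16.8 FPKM in NL and 4.90, 6.47 and 4.99 FPKM in c-MYC. With FOXO1AAA it was 0.389, 0.988 and 0.642 FPKM. The 3 groups of Inhbe did not overlap. The difference between the tumours was called (log2 fold change -3.06 ± 0.36, adjusted p = 0.000172), while that between c-MYC and NL was not (-1.26 ± 0.34, adjusted p = 0.0737), although it passed without NL 3 (adjusted p = 0.0222) or c-MYC/FOXO1AAA 1 (0.0452), with voom (0.0374) and with no fold threshold (0.00611). The summed hepatocyte markers fell in the same order of groups. Of the 12 markers, 7 were called lower and 2, Cyp2e1 and Tat, higher with FOXO1AAA against c-MYC, beside 12.7% and 15.9% of all tested genes.

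Inhba, which encodes the chain of activin A, fell from 1.81, 1.51, 3.13 and 2.89 FPKM in NL to 0.0597, 0.116 and 0.0767 in c-MYC (log2 fold change -4.49 ± 0.35, SE, adjusted p = 2.16e-06, limma). It stayed at 0.152 to 0.239 FPKM with FOXO1AAA, which was not called against c-MYC (adjusted p = 0.258). Inhbb, the chain of activin B, went the other way. It was 0.131 to 0.481 FPKM in NL, 0.551, 0.274 and 1.34 in c-MYC, and 3.46, 2.44 and 3.37 with FOXO1AAA. The rise against c-MYC was called (2.31 ± 0.56, adjusted p = 0.0219) but rested on few libraries, since it missed the threshold without c-MYC 1 (adjusted p = 0.0576), c-MYC 2 (0.0909), c-MYC/FOXO1AAA 1 (0.0650) or c-MYC/FOXO1AAA 3 (0.0564). The difference of c-MYC from NL (1.25 ± 0.52, adjusted p = 0.21) passed without c-MYC 2 (0.0497), at the same FPKM total (0.00911) and with no fold threshold (0.0492).

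Of the 13 BMP and GDF ligands in the table, 9 reached the filter on low values. In c-MYC against NL, 4 were called higher and 5 lower, beside 24.5% and 23.6% of all tested genes. Some passed the filter only through the group in which they were high, as Bmp6 and Gdf2 reached 1 FPKM in NL alone, so nothing is read from the share called. The lower ones were Bmp2, Bmp4, Bmp6, Gdf2 and Gdf10. Bmp2 was 4.18, 4.80, 2.97 and 4.26 FPKM in NL and 0.199, 0.149 and 0.245 FPKM in c-MYC. Bmp6, its partner in the control of hepcidin, was 1.89, 2.04, 2.48 and 1.30 FPKM in NL and 0.152, 0.0886 and 0.182 in c-MYC. Neither gene overlapped between the groups, with log2 fold changes of -4.14 ± 0.28 for Bmp2 (SE, adjusted p = 8.93e-07, limma) and -3.50 ± 0.41 for Bmp6 (adjusted p = 6.69e-05). Gdf2, which encodes BMP9, a ligand of the endothelial receptor ALK1 that stellate cells produce, fell from 5.30, 4.83, 4.70 and 6.94 FPKM in NL to 0.0729, 0.0178 and 0.182 in c-MYC, which was 15 reads in 3 libraries together (log2 fold change -5.59 ± 0.48, adjusted p = 4.18e-06). Bmp10, its closest relative, was below the filter. It had 115 reads over the NL libraries (0.546 to 0.786 FPKM) and 0 in c-MYC. With c-MYC set at a floor of 3 reads over the group, NL was 54.3-fold higher. The 95% exact lower limit from counting was 43.5-fold.

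With FOXO1AAA these ligands parted. Bmp4 was 4.55, 5.33, 5.46 and 4.23 FPKM in NL and 0.167, 0.195 and 0.200 FPKM in c-MYC. It was 5.79, 6.40 and 6.84 FPKM in c-MYC/FOXO1AAA. The level thus fell in c-MYC (log2 fold change -4.25 ± 0.17, SE, adjusted p = 1.94e-08, limma) and rose again with FOXO1AAA (4.62 ± 0.18, adjusted p = 4.76e-08) to slightly above NL, a difference that was not called (0.37 ± 0.17, adjusted p = 1) except at the same FPKM total (1.47, adjusted p = 0.000415). Bmp2 rose only in part, to 0.765, 1.24 and 1.33 FPKM (2.29 ± 0.30 against c-MYC, adjusted p = 0.000582), and remained lower than in NL (-1.85 ± 0.28, adjusted p = 0.00123). Both of these calls depended on the scale, as the first missed the threshold with a pseudocount of 1 FPKM (adjusted p = 0.341) and the second at the same FPKM total (adjusted p = 0.346). Bmp6 stood at 0.904, 0.261 and 0.397 FPKM and Gdf2 at 0.204, 0.650 and 0.239 FPKM, neither called against c-MYC (adjusted p = 0.0885 and 0.0959), although Bmp6 passed without c-MYC/FOXO1AAA 2 (0.0304) and Gdf2 without c-MYC 3 (0.0208). Against NL both stayed lower, with log2 fold changes of -1.96 ± 0.41 for Bmp6 (adjusted p = 0.00723) and -3.91 ± 0.48 for Gdf2 (adjusted p = 5.88e-05). For Bmp6 that call was lost with a pseudocount of 1 FPKM (adjusted p = 0.0508) and at the same FPKM total (0.326).

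The ligands called higher in c-MYC against NL were Bmp7, Bmp8b, Gdf11 and Gdf15. Gdf15, a stress-induced cytokine that acts through a receptor in the hindbrain, was 2.75, 1.17, 1.59 and 1.30 FPKM in NL and 10.2, 10.6 and 13.1 FPKM in c-MYC. With FOXO1AAA it was 1.31, 2.80 and 1.85 FPKM. The c-MYC libraries were above all others, and the log2 fold change was 2.75 ± 0.31 in c-MYC against NL (SE, adjusted p = 7.51e-05, limma) and -2.52 ± 0.33 in c-MYC/FOXO1AAA against c-MYC (adjusted p = 0.000489). Against NL the difference in c-MYC/FOXO1AAA was 0.23 ± 0.31 (adjusted p = 1), with its sign turned without c-MYC/FOXO1AAA 2 (-0.04) and a call at the same FPKM total only (1.33, adjusted p = 0.0218). Bmp8b varied within c-MYC (2.09, 18 and 9.67 FPKM) but was above NL (0 to 0.277 FPKM) and above c-MYC/FOXO1AAA (0.345, 1.25 and 0.330 FPKM) in each library. Its log2 fold change of 5.89 ± 0.88 against NL (adjusted p = 0.000288) became 6.76 without c-MYC 1 and 5.22 without c-MYC 2, and voom on the recovered reads did not call it (adjusted p = 0.0576). The fall with FOXO1AAA (-3.66 ± 0.94, adjusted p = 0.0191) missed the threshold without c-MYC 2 (adjusted p = 0.0783), c-MYC 3 (0.0569), c-MYC/FOXO1AAA 1 (0.0674) or c-MYC/FOXO1AAA 3 (0.0604), and with voom (0.0768). Its value moved to -4.54 without c-MYC 1 and to -4.25 without c-MYC/FOXO1AAA 2.

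Gdf11, a close relative of myostatin, rose from 0.0522 to 0.401 FPKM in NL to 2.64, 5.08 and 3.91 FPKM in c-MYC (log2 fold change 4.51 ± 0.49, SE, adjusted p = 2.55e-05, limma) and was 1.25, 1.54 and 1.27 FPKM with FOXO1AAA. The latter was not called against c-MYC (adjusted p = 0.182), except with voom (0.0104) and with no fold threshold (0.0346). Gdf10 fell in c-MYC, where it had 11 reads in all, from 1.63 to 2.17 FPKM in NL (-4.96 ± 0.72, adjusted p = 0.00022). With FOXO1AAA its libraries were spread over 0.226, 0.938 and 3.84 FPKM. The log2 fold change against c-MYC of 4.04 ± 0.77 (adjusted p = 0.00294) was 5.02 without c-MYC/FOXO1AAA 1 and 3.04 without c-MYC/FOXO1AAA 3, and the call was lost with a pseudocount of 1 FPKM (adjusted p = 0.285) and with voom (0.117). Against NL, the difference of -0.93 ± 0.72 (adjusted p = 0.497) passed without c-MYC/FOXO1AAA 3 (-1.92, adjusted p = 0.0248) and turned its sign without c-MYC/FOXO1AAA 1 (0.06) and at the same FPKM total (0.17). Bmp7 did not follow this pattern. It was 0.419 to 1.06 FPKM in NL, and 3.18 to 5.89 in c-MYC and 3.14 to 5.49 in c-MYC/FOXO1AAA, which overlapped. Other ligands under the filter were Bmp5 at 0.429 to 0.554 FPKM in NL and 0.0142 to 0.184 in the tumours, Gdf6 at 0 to 0.749 and Gdf9 at 0 to 0.504 FPKM over all libraries.

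**Figure D4:**
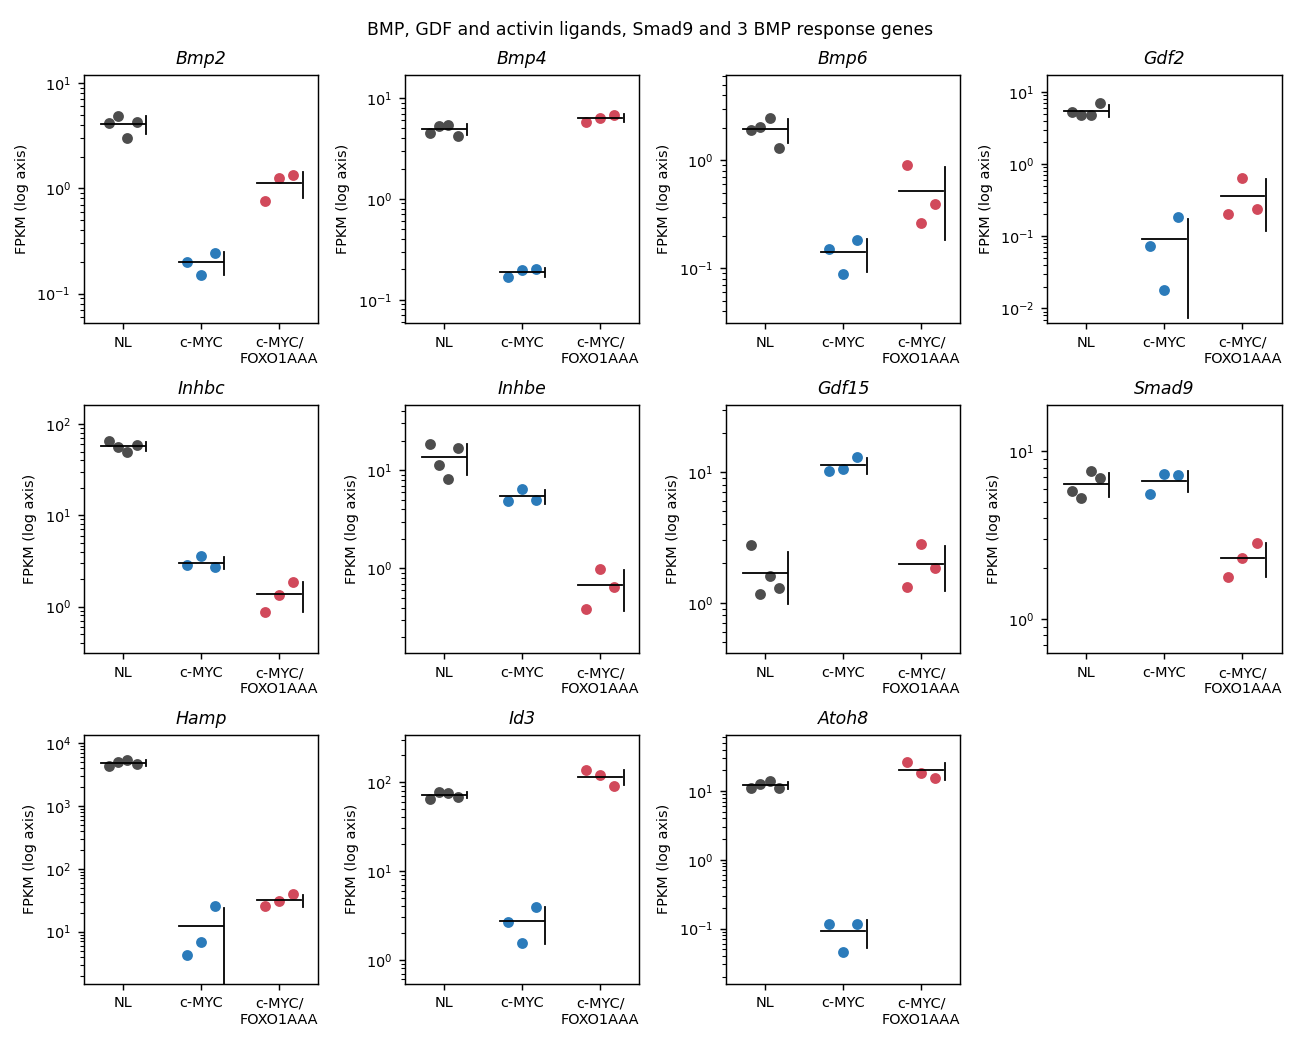
FPKM (log axis, with its own range in each panel) of 8 members and 3 BMP response genes in each library, with group means (horizontal lines) and SD (vertical lines, cut at the lower edge of the panel). Bmp4, Id3 and Atoh8 are lowest in c-MYC and highest in c-MYC/FOXO1AAA, while Hamp stays low in both tumour groups.

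Of the 6 type I receptors, none was called between c-MYC and NL, where 24.5% of all tested genes were called higher and 23.6% lower. Acvr1b, Bmpr1a and Tgfbr1 passed at the same FPKM total (adjusted p = 0.000272, 1.39e-05 and 0.0385). Bmpr1b, which encodes the BMP receptor ALK6 and is best known from cartilage and ovary, was almost absent in NL and c-MYC. It had 1 read over the 4 NL libraries and 1 over the 3 c-MYC libraries, but 1094, 1181 and 492 reads with FOXO1AAA, or 8.30, 7.39 and 4.69 FPKM. The ratio of c-MYC/FOXO1AAA to c-MYC in recovered reads was 2074 (95% exact interval 372 to 81956, counting error only), and the fitted log2 fold change, which depends on the prior count, was 8.05 ± 0.37 (SE, adjusted p = 9.08e-08, limma). Acvr1b, the activin receptor ALK4, went down from 8.44, 10.8 and 7.79 FPKM in c-MYC to 3.83, 3.82 and 4.03 FPKM with FOXO1AAA (-1.19 ± 0.15, adjusted p = 0.00437) and had been 5.82 to 7.15 FPKM in NL. 

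Tgfbr1, Acvr1 and Acvrl1 were not called in any of the 3 comparisons in the fit as described. Tgfbr1, the TGF-beta receptor ALK5, lay at 16.4 to 17.9 FPKM in NL, 14.5 to 20.7 in c-MYC and 19.4 to 22.5 in c-MYC/FOXO1AAA. Acvr1, which encodes ALK2, stood at 4.83 to 6.20, 4.79 to 5.50 and 4.31 to 4.48 FPKM in the same order, and Acvrl1, the endothelial receptor ALK1, at 1.78 to 3.13, 1.91 to 2.12 and 1.11 to 2.51 FPKM. Bmpr1a, the BMP receptor ALK3 of hepatocytes, was 5.65 to 6.18 FPKM in NL, 8.67 to 10.8 in c-MYC and 10.4 to 12.4 with FOXO1AAA. In the fit as described it was called in c-MYC/FOXO1AAA against NL alone (0.92 ± 0.11, SE, adjusted p = 0.0127, limma), which was lost without c-MYC/FOXO1AAA 1 (adjusted p = 0.0555) and at the same median (0.0800).

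Among the type II receptors, Acvr2a and Bmpr2 rose with FOXO1AAA and Acvr2b rose in c-MYC. Acvr2a was 3.47 to 4.80 FPKM in NL, 3.35 to 4.18 in c-MYC and 9.80, 8.82 and 8.11 in c-MYC/FOXO1AAA (log2 fold change 1.24 ± 0.16 against c-MYC, SE, adjusted p = 0.00498, limma). Bmpr2 was 2.74 to 3.25, 1.70 to 2.17 and 4.34 to 4.96 FPKM (1.29 ± 0.16, adjusted p = 0.00354). Acvr2b stood at 1.67 to 3.23 FPKM in NL, 6.85 to 8.75 in c-MYC and 5.80 to 5.92 with FOXO1AAA, called in both tumours against NL (1.64 ± 0.21, adjusted p = 0.000782, and 1.28 ± 0.21, adjusted p = 0.00768). Tgfbr2, the receptor without which TGF-beta does not signal, overlapped in all 3 groups, with 2.16 to 3.54, 1.89 to 3.65 and 1.89 to 2.51 FPKM. The signalling receptors of TGF-beta, Tgfbr1 and Tgfbr2, were thus not called between the tumours, while its 3 ligands were.

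Tgfbr3, or betaglycan, the coreceptor that presents TGF-beta2 to TGFBR2, rose with its ligand. It was 1.32, 1.31, 1.35 and 1.74 FPKM in NL and 0.501, 0.942 and 1.14 FPKM in c-MYC. It was 12.3, 9.47 and 8.81 FPKM in c-MYC/FOXO1AAA, above every other library (log2 fold change 3.60 ± 0.29 against c-MYC, SE, adjusted p = 8.73e-06, limma, and 2.81 ± 0.28 against NL, adjusted p = 1.63e-05). Bambi, a decoy receptor without a kinase domain, was below the filter, with 0.753 to 1.12, 0.183 to 0.451 and 0.304 to 0.584 FPKM. Tgfbr3l, a relative of betaglycan, was 0.8292 to 1.81 FPKM in NL, 0.101 to 0.395 in c-MYC, where it was called lower (-2.15 ± 0.46, adjusted p = 0.00847, at most 0.155 over the alternatives), and 0.332 to 1.43 in c-MYC/FOXO1AAA.

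**Figure D5:**
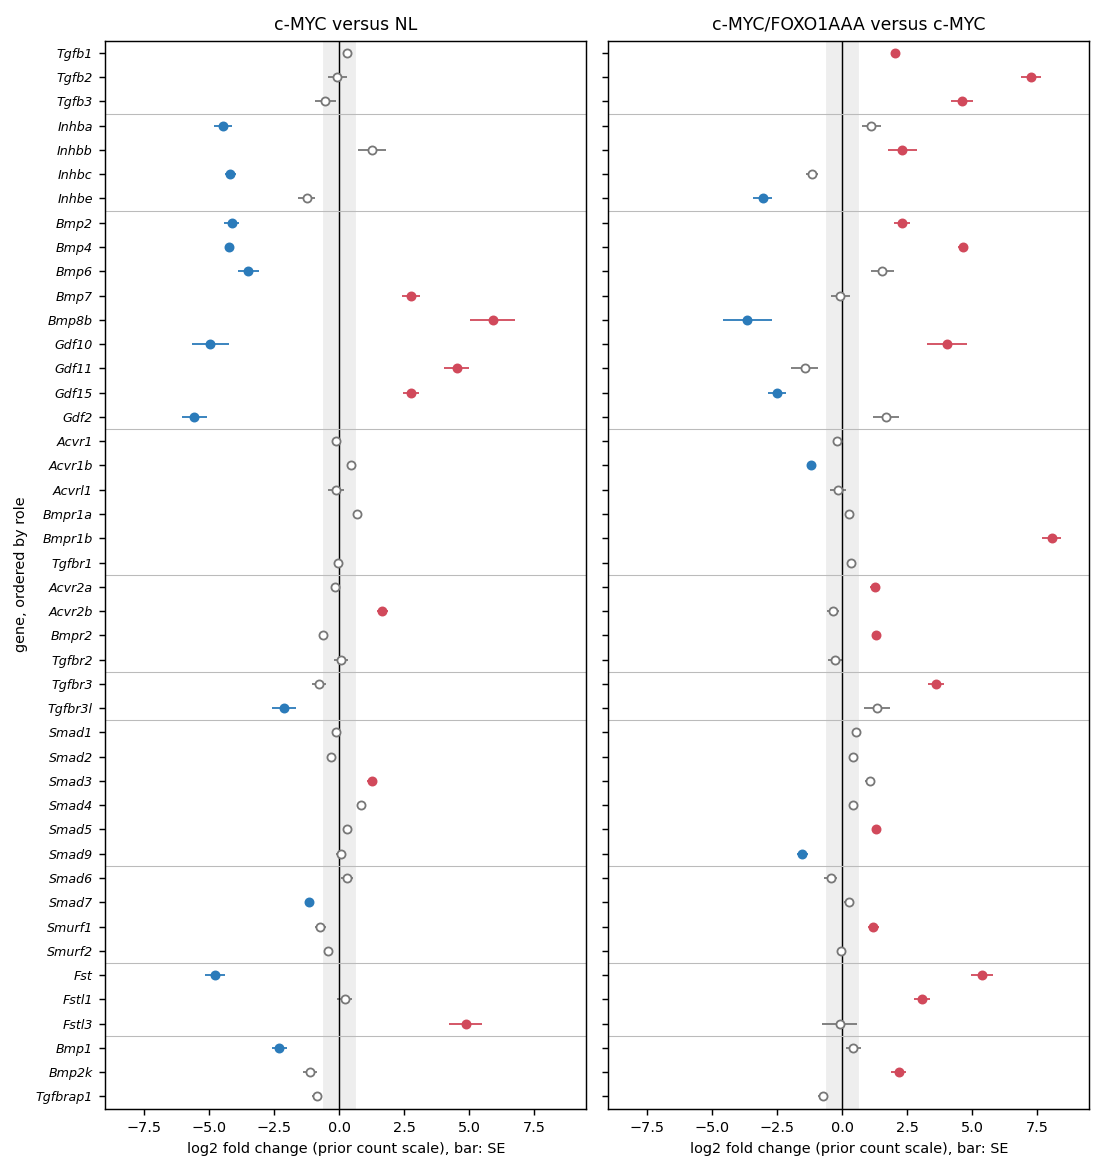
Log2 fold change (bar, SE) of the tested members described in c-MYC versus NL (left) and c-MYC/FOXO1AAA versus c-MYC (right), on the deposited scale with its prior count. Filled points were called higher (red) or lower (blue), open points were not, the grey band marks changes within 1.5-fold, and Bmpr1b is left out on the left because both groups were at or under 3 reads.

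Of the 6 signal-transducing SMADs, 1 was higher and none lower in c-MYC against NL, beside 24.5% and 23.6% of all tested genes. Smad3 was 3.06, 3.44, 2.84 and 2.41 FPKM in NL and 6.12, 9.04 and 6.02 in c-MYC (log2 fold change 1.25 ± 0.17, SE, adjusted p = 0.00427, limma). It reached 15.1, 14.8 and 13.3 FPKM in c-MYC/FOXO1AAA. The 3 groups did not overlap, and the step from c-MYC to c-MYC/FOXO1AAA (1.05 ± 0.19) fell just short of the threshold (adjusted p = 0.0535). It passed without NL 2 (adjusted p = 0.0495), NL 4 (0.0477) or c-MYC 2 (0.00784), with voom (0.0138) and at the same FPKM total (0.0183). Smad2, the other SMAD of TGF-beta and activin, overlapped in all groups at 14.7 to 16.7, 9.705 to 16.0 and 15.5 to 18.1 FPKM.

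The BMP SMADs split. Smad5 was 4.76 to 5.09 FPKM in NL, 5.42 to 6.64 in c-MYC and 16.8, 14.4 and 12.8 in c-MYC/FOXO1AAA (log2 fold change 1.27 ± 0.13 against c-MYC, SE, adjusted p = 0.00104, limma). Smad9, which encodes SMAD8, fell from 5.56, 7.28 and 7.21 FPKM in c-MYC to 1.78, 2.30 and 2.85 with FOXO1AAA (-1.54 ± 0.21, adjusted p = 0.00248), and NL was at 5.30 to 7.59 FPKM. Against NL, Smad9 was also lower (-1.48 ± 0.20, adjusted p = 0.00112), but not at the same FPKM total (adjusted p = 0.945). Smad1, at 8.56 to 9.996 FPKM in NL, 7.37 to 8.62 in c-MYC and 10.7 to 12.9 in c-MYC/FOXO1AAA, was called in none of the 3 comparisons in the fit as described. Its lowest adjusted p over the alternatives was 0.00318 in c-MYC/FOXO1AAA against c-MYC and 3.9e-05 in c-MYC/FOXO1AAA against NL. Smad4, the shared partner, stood at 10.4 to 12.01, 18.3 to 20.4 and 22.7 to 29.4 FPKM. It was called in c-MYC/FOXO1AAA against NL (1.23 ± 0.11, adjusted p = 0.000167), whereas c-MYC against NL missed the threshold (0.81 ± 0.11, adjusted p = 0.0634). The latter passed without NL 1 (0.0418) or c-MYC/FOXO1AAA 3 (0.0482), and its adjusted p over all alternatives ran from 3.44e-06 to 0.156.

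Of the inhibitory SMADs, Smad7, a target gene of the pathway that blocks its receptors, was lower in both tumours. It was 5.23, 4.59, 6.39 and 5.86 FPKM in NL, 2.64, 2.22 and 2.38 in c-MYC, and 2.79, 2.95 and 2.82 in c-MYC/FOXO1AAA. Its log2 fold change against NL was -1.18 ± 0.15 in c-MYC (SE, adjusted p = 0.00388, limma), which was not called at the same FPKM total (-0.25, adjusted p = 1). In c-MYC/FOXO1AAA it was -0.93 ± 0.15 (adjusted p = 0.0397), a call that was lost on leaving out NL 1, NL 3, NL 4 or any c-MYC/FOXO1AAA library (adjusted p = 0.0506 to 0.103) and with a pseudocount of 1 FPKM (0.173), and whose sign turned at the same FPKM total (0.16). Smad6, the inhibitor of the BMP branch, was not called in the fit as described (2.86 to 4.94, 4.11 to 5.66 and 2.80 to 4.38 FPKM), and in c-MYC against NL it passed at the same FPKM total (adjusted p = 0.0121). Smurf1, a ubiquitin ligase for SMADs and receptors, was 5.04 to 6.91 FPKM in NL, 3.03 to 4.45 in c-MYC and 8.15, 10.8 and 6.47 with FOXO1AAA. Its rise against c-MYC (1.19 ± 0.21, adjusted p = 0.0324) was lost without c-MYC 1 (adjusted p = 0.0725), c-MYC 3 (0.114), c-MYC/FOXO1AAA 1 (0.0669) or c-MYC/FOXO1AAA 2 (0.135), with a pseudocount of 1 FPKM (0.0778) and at the same median (0.0533). Smurf2 lay at 24.2 to 33.9, 20.4 to 22.9 and 19.4 to 22.1 FPKM and was not called in the fit as described. Against NL, its lowest adjusted p over the alternatives was 0.00564 in c-MYC and 0.00221 in c-MYC/FOXO1AAA.

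Among the secreted antagonists, Fst, or follistatin, which traps activins, was lowest in c-MYC, as Bmp4 was. It was 3.77, 4.18, 1.99 and 2.77 FPKM in NL, had 0, 2 and 4 reads in c-MYC, and was 5.90, 3.40 and 4.79 FPKM in c-MYC/FOXO1AAA. The ratio to c-MYC was 54.8 in NL (95% exact interval 24.8 to 151, counting error only) and 78.8 in c-MYC/FOXO1AAA (36.0 to 216), with adjusted p = 2.86e-06 and 3.89e-06 (limma). NL and c-MYC/FOXO1AAA overlapped and were called different at the same FPKM total only (1.67, adjusted p = 0.0139). Fstl1, a secreted glycoprotein of mesenchymal cells that binds BMP4, was 4.54 to 7.27 FPKM in NL, 4.26 to 9.25 in c-MYC and 38.2, 73.1 and 69.3 with FOXO1AAA (3.07 ± 0.32 against c-MYC, SE, adjusted p = 7.02e-05). Fstl3, which binds activin as follistatin does, had 16 reads in NL together (0 to 0.556 FPKM) and was 5.18, 3.77 and 6.68 FPKM in c-MYC and 5.58, 5.03 and 3.73 FPKM in c-MYC/FOXO1AAA. Both tumour groups were above NL and overlapped each other, with a log2 fold change in c-MYC against NL of 4.86 ± 0.64 (adjusted p = 0.000118) that was 5.46 without NL 1. In c-MYC/FOXO1AAA against NL it was 4.75 ± 0.64 (adjusted p = 0.000102), and 5.35 without NL 1.

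Bmp1, Bmp2k and Tgfbrap1 share the name of the family without being ligands or receptors. Bmp1, a protease that matures procollagen and frees BMPs from chordin, fell from 43.0 to 49.6 FPKM in NL to 5.27 to 15.5 in c-MYC (adjusted p = 0.000208) and 11.01 to 14.1 in c-MYC/FOXO1AAA (adjusted p = 0.00106, at most 0.305 over the alternatives). Bmp2k, a kinase induced by BMP2, rose with FOXO1AAA from 0.560 to 0.927 FPKM in c-MYC to 2.53 to 3.33, and Tgfbrap1, a vesicle-tethering protein first found bound to TGF-beta receptors, was 8.49 to 10.7 FPKM in NL, 4.48 to 6.25 in c-MYC and 2.46 to 3.51 in c-MYC/FOXO1AAA, where it was called lower than in NL (adjusted p = 0.000158, at most 0.726 over the alternatives).

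Beyond the members, 59 other genes of the pathway were in the table and 50 were tested. This list was fixed with earlier results of these data known. Some of its genes passed the filter only through the group in which they were high. Bmper and Msx1, for example, reached 1 FPKM in c-MYC/FOXO1AAA alone. Nothing is therefore read from the shares called. In c-MYC against NL, 4 were higher and 22 lower, where 24.5% and 23.6% of all tested genes were called in these directions. Between the tumours, 25 were higher with FOXO1AAA and 5 lower, against 15.9% and 12.7% of all tested genes. In c-MYC/FOXO1AAA against NL 23 were higher and 16 lower, against 31.2% and 26.6%. Without c-MYC/FOXO1AAA 1, the 5 lower genes of the tumour comparison were 3. At the same FPKM total, the numbers in c-MYC against NL were 12 higher and 18 lower, and in c-MYC/FOXO1AAA against NL 30 higher and 9 lower.

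Hamp and other genes of hepcidin control in hepatocytes fell in both tumour groups against NL. Hamp, which encodes hepcidin, was 4264, 4919, 5352 and 4685 FPKM in NL and 4.25, 6.73 and 25.8 FPKM in c-MYC. It was 25.1, 30.7 and 39.3 FPKM with FOXO1AAA. Both tumour groups lay far below NL (log2 fold change -8.99 ± 0.47 in c-MYC, SE, adjusted p = 1.09e-07, limma, or -9.73 without c-MYC 3), and they overlapped each other (adjusted p = 0.0726, or 6.75e-05 without c-MYC 3). Hamp2, a near-identical copy with which Hamp may share reads, was 16.2 to 55.6 FPKM in NL and had 0 reads in c-MYC. Tmprss6 and Tfr2, which set hepcidin output from the hepatocyte surface, were 624 ± 24.5 and 276 ± 22.9 FPKM (SD, n = 4) in NL and fell to 34.6 ± 10.5 and 35.8 ± 3.78 FPKM in c-MYC and 12.99 ± 3.77 and 5.59 ± 2.18 FPKM in c-MYC/FOXO1AAA (n = 3 each). For Tmprss6 the fall between the tumours (-1.41 ± 0.25, adjusted p = 0.0152) was lost without c-MYC 2 (adjusted p = 0.0637) or c-MYC/FOXO1AAA 1 (0.0527).

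Id3 and Atoh8, transcription regulators that BMP induces in many cells, were lowest in c-MYC, as Bmp4 was. Of the 16 tested response genes, 7 were called higher and 3, Id2, Tfr2 and Tmprss6, lower with FOXO1AAA against c-MYC. Of all tested genes, 15.9% were called higher and 12.7% lower in this comparison. Id3 was 64.5, 77.6, 75.6 and 68.4 FPKM in NL, 2.69, 1.54 and 3.92 in c-MYC, and 135, 118 and 89.6 in c-MYC/FOXO1AAA. Atoh8 was 10.9, 12.6, 13.8 and 10.9 FPKM in NL, 0.116, 0.0451 and 0.116 in c-MYC, and 26.1, 18.5 and 15.6 in c-MYC/FOXO1AAA. In both genes the c-MYC libraries were lowest and those with FOXO1AAA highest. Id2, of the same family as Id3, fell instead in each step, from 173 to 201 FPKM in NL to 39.6 to 63.2 in c-MYC and 17.2 to 24.0 with FOXO1AAA (adjusted p = 0.014 between the tumours, at most 0.0603 over the alternatives). The log2 fold changes with FOXO1AAA against c-MYC were 5.42 ± 0.28 for Id3 (SE, adjusted p = 2.67e-07, limma) and 7.15 ± 0.26 for Atoh8 (adjusted p = 2.6e-08), and neither of these was called against NL (adjusted p = 0.545 and 0.443) except at the same FPKM total (0.000933 and 0.000408) and with no fold threshold (0.0358 and 0.0186).

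Of the 8 tested genes on the list of further ligands and latency genes, Ltbp1, Ltbp2, Ltbp3, Ltbp4 and Thbs1 were called higher with FOXO1AAA against c-MYC, Furin, a protease that cleaves the precursor of TGF-beta, was called lower, and Lrrc32 and Pcsk6 were not called. The shares of all tested genes called in this comparison were 15.9% higher and 12.7% lower. Ltbp3, a latent TGF-beta binding protein, was 0.666 to 1.17 FPKM in NL, 0.327 to 0.682 in c-MYC and 33.3, 30.05 and 28.3 in c-MYC/FOXO1AAA (log2 fold change 6.01 ± 0.29 against c-MYC, SE, adjusted p = 1.5e-07, limma). Thbs1, or thrombospondin 1, which activates latent TGF-beta, was 0.0381 to 0.0929, 0.145 to 0.438 and 22.9 to 29.9 FPKM (6.40 ± 0.40, adjusted p = 8.64e-07). It was also higher in c-MYC than in NL (1.88 ± 0.38, adjusted p = 0.00765), but not with a pseudocount of 1 FPKM (adjusted p = 1). Msx1, a homeobox gene induced by BMP, rose from 0.0281 to 0.141 FPKM in c-MYC to 21.5, 19.3 and 9.46 (6.85 ± 0.57, adjusted p = 6.13e-06), and the BMP modulators Bmper and Rgma reached 3.53 to 4.68 and 2.57 to 3.77 FPKM from at most 0.0718 and 0.0647 in c-MYC (adjusted p = 2.74e-06 and 2.33e-05). Cdkn1a, the cell cycle inhibitor p21, differed from these. It was 0.665 to 2.03 FPKM in NL, 18.3 to 28.4 in c-MYC and 42.6 to 50.4 with FOXO1AAA, with the call in c-MYC against NL (4.31 ± 0.30, adjusted p = 1.23e-06) and not between the tumours (adjusted p = 0.328), except with voom (0.0462) and with no fold threshold (0.0241). Beside these differences, 8 of the 12 tested stellate cell and fibroblast markers and 8 of the 9 tested muscle markers were called higher with FOXO1AAA against c-MYC. The share over all tested genes was 15.9%. Muscle markers such as Myod1 and Myog passed the filter only through c-MYC/FOXO1AAA, so nothing is read from the share of them called. Dcn was at 178 to 312 FPKM against 1.69 to 7.93. The part of these markers in the rise of the ligands, antagonists and latency genes was not tested.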

How the data were processed

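RNA of 4 NL, 3 c-MYC and 3 c-MYC/FOXO1AAA samples was sequenced by the authors, who deposited log2 FPKM values with a prior count, scaled between libraries. The submitters' notes name FastQC 0.11.7 and GRCm38, while the aligner and the counter are not given in the sources used here. Of 17069 rows, 372 carried no symbol and were left out. Members and lists were chosen by symbol with earlier results of these data known.

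Whole reads and gene lengths were recovered from the deposited values for 99.93% of gene rows, within 0.001 reads, and gave the FPKM and reads printed, so that floors and intervals cover counting error only. The libraries held 13123717 to 20547746 reads, with scaling factors of 0.649 to 0.684 in NL, 1.26 to 1.29 in c-MYC and 1.45 to 1.50 in c-MYC/FOXO1AAA, so that a rare gene is measured with fewer effective reads in NL. Differences were tested on the deposited log2 values with limma 3.58.1 (treat, trend and robust) in R 4.3.3, over the 14017 genes with at least 1 FPKM in at least 3 libraries, with group means fitted to all 10 libraries, a threshold of 1.5-fold and Benjamini-Hochberg adjusted p under 0.05. The study tested counts, and as the deposited unit is log2 FPKM, limma took the place of its count test. The test was also run on simulated counts with the same spread for all genes and few changed genes. That setting is simpler than these data, and no error rate is read from it.

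Members of the core pathway were named whatever their call, with up to 12 further members per comparison by size of change among those called without overlap, and up to 6 other pathway genes by the same rule. The remaining members were described by range. The values of 1 member, which is included in the counts, are not reported here. Alternatives were a pseudocount of 1 FPKM, no filter, the same FPKM total or median in each library, no fold threshold, a replicate block, voom on the recovered reads, and leaving out each library. Gene positions are from GENCODE M21 and promoters from RefSeq (GRCm38.p6), both matched by symbol.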

Additional observations from a re-analysis of the deposited data

Results flagged for a closer look

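Dixon's test was applied to the 4 NL libraries for each of the 50 members. For 2 members a library lay apart from the others, which chance does in about 1 in 20 groups, so nothing is read from this number. Tgfbr3 was 1.74 FPKM in NL 4 and 1.31 to 1.35 FPKM in the other NL libraries. Bmpr1b was 0.0169 FPKM in NL 1, which was 1 read, and had 0 reads in the other NL libraries. A gene with reads in only 1 NL library always lies apart by this test.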

How the results depend on the processing

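Replicate numbers did not pair the samples, since correlations of same-numbered libraries ran from -0.0398 to 0.0272, and they share only a number. With a replicate block, members called higher and lower were 7 and 12 in c-MYC versus NL, 18 and 5 between the tumours, and 16 and 10 in c-MYC/FOXO1AAA versus NL. The block gave Tgfb2 0.093 and Tgfbr2 -0.027 (log2 fold change, c-MYC versus NL) with turned signs, calls for Hamp (adjusted p = 0.0429) and Smad3 (0.0345) between the tumours, and no call for Smad7 in c-MYC/FOXO1AAA versus NL (-0.90, adjusted p = 0.0976).

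At the same FPKM total, c-MYC versus NL had 16 members higher and 12 other pathway genes higher, and c-MYC/FOXO1AAA versus NL 26 members higher, 5 lower and 9 other genes lower. Of all calls in c-MYC versus NL, 51.0% were higher in the fit as described and 78.8% at the same total, and in c-MYC/FOXO1AAA versus NL 54.0% and 79.5%. With no fold threshold, c-MYC versus NL had 12 members higher, 19 lower and 8 other genes higher, and the tumour comparison had 8 members lower. A pseudocount of 1 FPKM left 2 other genes higher in c-MYC versus NL.

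Signs turned at the same FPKM total in c-MYC versus NL for Acvr1 (0.81), Acvr2a (0.77), Acvrl1 (0.80), Bmpr2 (0.29), Smad1 (0.78), Smad2 (0.61), Smurf1 (0.20), Smurf2 (0.49), Tgfb2 (0.84), Tgfb3 (0.38), Tgfbr1 (0.89) and Tgfbr3 (0.14), of which Tgfbr1 was then called. They turned between the tumours for Acvrl1 (0.0078), Fstl3 (0.066) and Smurf2 (0.11), and in c-MYC/FOXO1AAA versus NL for Gdf10 (0.17) and Smad7 (0.16). The scaling itself raised the median of all tested genes by 0.93, 0.17 and 1.10 in the 3 comparisons.

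On leaving out each library, signs turned within -0.24 to 0.027 for Acvrl1, -0.018 to 0.53 for Fstl1, -0.023 to 0.19 for Smad9, -0.42 to 0.13 for Tgfb2, -0.19 to 0.068 for Tgfbr1 and -0.15 to 0.33 for Tgfbr2 in c-MYC versus NL. Between the tumours they did so for Acvrl1 (-0.39 to 0.18) and Fstl3 (-0.32 to 0.091), and in c-MYC/FOXO1AAA versus NL for Gdf10 (-1.92 to 0.058) and Gdf15 (-0.043 to 0.48). Other pathway genes lower between the tumours then numbered 3 to 5. Of the 143 gene results, 137 kept sign and side of the threshold with a pseudocount of 1 FPKM, 142 with no filter, 140 at the same median, 135 with voom, 138 with the block and 106 at the same FPKM total. Genes with a few reads per library, such as Bmpr1b and Fst in c-MYC, are limited by depth. The causes of the changes were not tested.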
